A study of Mus musculus with 5 samples.

Results

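The genes described here are 35 members of the p53 pathway and the intrinsic apoptosis machinery, out of 32285 genes counted in a droplet single-cell RNA series of REX-1 RFP cells. These are mouse embryonic stem cells that carry a red fluorescent reporter under the Rex1 promoter. The members were chosen by gene symbol: p53 with its regulators and targets, the BCL2 family, and the caspases with the genes that act on them. All 35 symbols were found once in the gene list. Cells were held for 72 h in 5 conditions, with 1 library each: sorbitol at 200 mM, at 250 mM or at 300 mM with leukaemia inhibitory factor (LIF) present, the condition labelled ND without LIF, and the condition labelled NS with LIF. Sorbitol is a sugar alcohol that raises osmolarity, and LIF is the cytokine that holds mouse stem cells in self-renewal. The labels do not spell out ND and NS. All 5 conditions share the reporter line. The design has single replicates, so each ratio compares libraries, no p-value is given, and a batch effect of any library cannot be told apart from its condition.

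p53 (gene Trp53) is a transcription factor that is held low by MDM2, which marks it for destruction, and by MDM4, which blocks its activity. Under stress it switches on genes of cell cycle arrest, repair and death, Mdm2 among them, which closes a feedback loop. Death by the intrinsic route is decided at the mitochondrion: BAX and BAK1 open the outer membrane, BCL2, BCL2L1 and MCL1 restrain them, and the BH3-only proteins (such as NOXA, PUMA and BIM) act on both. Cytochrome c then escapes and, with APAF1, activates caspase 9. Mouse embryonic stem cells are known for a high level of p53 protein, much of it cytoplasmic, and for a low threshold for apoptosis.

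Because p53 acts through a DNA element in its targets, the stretches that match it upstream of a RefSeq start site of the members are shown first. RefSeq promoter windows (GRCm38.p6, 250 bases before to 50 after a start site) were found for 30 of the 35 members. The p53 response element is built of repeats of a 10-base unit, and exact matches to the consensus of that unit were searched; the unit is its own reverse complement, so both strands are covered, and no other motif was searched. Of 42 windows of the members, 10 held a match (23.8%), against 8.36% of 32851 windows of all genes. The windows with a match belonged to 9 genes, and overlapping windows of Aen held the same match. A pair of units with at most 13 bases between them stood in 1 window of the members and in 0.0731% of all windows. The window belonged to Cdkn1a, of which another window held no match. Each line gives the unit in capitals with up to 10 bases on either side, written 5′ to 3′ on the gene's own strand.
Trp53 (chr11:69580274-69580303, plus strand): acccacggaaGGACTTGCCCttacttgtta
Mdm2 (chr10:117710925-117710954, minus strand): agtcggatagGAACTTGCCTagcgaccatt
Cdkn1a (chr17:29090896-29090947, plus strand): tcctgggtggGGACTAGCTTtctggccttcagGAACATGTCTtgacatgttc
Ccng1 (chr11:40755452-40755481, minus strand): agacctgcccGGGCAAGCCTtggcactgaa
Gadd45a (chr6:67037428-67037457, minus strand): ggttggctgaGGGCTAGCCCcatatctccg
Sesn1 (chr10:41887256-41887285, plus strand): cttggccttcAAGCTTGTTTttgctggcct
Aen (chr7:78895927-78895956, plus strand): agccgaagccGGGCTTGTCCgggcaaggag
Ei24 (chr9:36797335-36797354, minus strand): cgtgcggcccGGGCATGCCC
Bax (chr7:45467080-45467109, minus strand): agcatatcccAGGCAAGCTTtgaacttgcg
A match is a run of letters and not a shown binding site, and windows with no match say nothing of elements elsewhere, such as in introns. Near matches were not counted or marked, such as the 10 bases that follow the last Cdkn1a unit, which miss the consensus at 1 base. The stretches of Gadd45a, Sesn1, Aen and Ei24 lie within the span of the gene in GENCODE M21.

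Each library held 10000 barcodes, and total unique molecular identifier (UMI) counts were 9230639, 9766705 and 8404105 at 200, 250 and 300 mM sorbitol, 8483612 in ND and 22158653 in NS. The median kept barcode held 888, 939 and 801 UMIs at the 3 doses, 827 in ND and 2135 in NS, and mitochondrially encoded genes took 5.61%, 5.78%, 6.13%, 4.98% and 3.98% of UMIs in that order. NS thus stands apart in depth from every library it is compared with, and the part of depth in the ratios was not tested. Thinning each barcode to 500 UMIs moved 15 of 162 member ratios outside their counting intervals. Such thinning draws UMIs at random, which leaves a gene's expected share nearly unchanged and adds counting error. It therefore cannot show what part depth has. Pairs of libraries shared 34 to 54 barcode sequences. The 6 core pluripotency markers were all detected in each library and summed to 7466, 8208 and 7353 CPM at the doses, 5298 CPM in ND and 6266 CPM in NS. Of 8 fibroblast markers, Col3a1 and Postn were at 0 in each library and the list summed to 4.55 to 15.9 CPM. Summed trophoblast markers stood at 158, 160 and 174 CPM over the doses, 126 in ND and 88.5 in NS, and primitive endoderm markers at 14.5, 17.8, 23.3, 8.22 and 13 CPM. Neuroectoderm markers summed to 49.2, 41.9, 56.0, 65.5 and 63.5 CPM, mesoderm markers to 24.8, 30.9, 38.8, 19.6 and 14.1 CPM and cleavage-stage markers to 36.6, 19.0, 12.8, 4.30 and 13.9 CPM in that order, with 4 to 6 of 6 markers of each of these lists detected in a library; their part in the ratios was not tested.

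Counts of these genes showed little spread over the barcodes of a library beyond counting error. With each barcode thinned to 500 UMIs, the variance of a member's count over barcodes was divided by the variance that draws from the library's own summed profile would give, so that 1 means no spread beyond counting. In NS this dispersion ran from 0.975 to 1.03 over the 16 members abundant enough to measure, and the highest member value in any library was 1.04, for Phlda3 at 300 mM. The sum of all 35 members gave 1.03, 0.996 and 1.01 at 200, 250 and 300 mM, 1.02 in ND and 1.02 in NS. Counting alone leaves an SD of about 0.0141 on such a value in NS. The same held for genes at large, whose median was 1.002 to 1.004 over the libraries, with 95th percentiles from 1.03 to 1.04. A single member averaged at most 0.211 UMIs per thinned barcode (Trp53 at 300 mM), and the sum of members 1.14 (200 mM) to 1.36 (300 mM). At means as low as those of single members, barcodes can differ in a gene while the value stays near 1. With so little spread at the median and 95th percentile over genes, the files do not show that each barcode holds the RNA of 1 cell. Genes above that percentile are not described, and whether the barcodes are cells or droplets of free RNA was not tested. No statement on single cells is made, and the libraries are described below as 5 summed profiles, whose levels may include free RNA and in which fewer cells of a type and less RNA per cell cannot be told apart.

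Levels are CPM, a gene's UMIs summed over kept barcodes and scaled to a library total of 1000000, and brackets hold 95% intervals for counting error only. A gene was measured in a comparison if it reached 5 CPM in either library, and called higher or lower at 1.5-fold. Of the 35 members, 33 were measured in at least 1 comparison. Bcl2, the founding inhibitor of apoptosis, had 1 to 13 UMIs per library and Fas, a death receptor, 2 to 13, so neither was measured.

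As a set, the members were called in shares close to those of all genes at 300 mM sorbitol, while at 200 mM a larger share of them was lower, a difference that was not tested. At 300 mM sorbitol against NS, 11 of 33 measured members were higher and 4 lower, which is 33.3% and 12.1%, where 32.8% of all measured genes were higher and 10.6% lower. At 200 mM, 7 of 32 were higher and 8 lower, 21.9% and 25.0%, against 26.8% and 11.0% of all genes. At 250 mM, 5 of 32 were higher and 3 lower, against 26.5% and 8.69%. In ND against NS, 2 of 32 were higher and 3 lower, against 10% and 7.07%. The 3 sorbitol comparisons and the ND comparison share the NS library. Member medians on the log2 scale were 0.06, 0.08 and 0.14 at 200, 250 and 300 mM and 0.08 in ND, beside 0.20, 0.23, 0.29 and 0.08 for all measured genes. Scaling by the median of gene ratios in place of the total lowered all sorbitol ratios to NS by 0.22, 0.24 and 0.26 and those of ND by 0.02. The sorbitol medians then turned negative, at -0.16, -0.16 and -0.13. With that scaling 4, 1 and 7 members were higher and 9, 8 and 6 lower over the doses, where 16.7%, 14.9% and 19.6% of all genes were higher and 18.9%, 16.5% and 19.2% lower. In ND 2 were then higher and 5 lower, beside 9.12% and 7.61% of all genes. Single members went different ways within most roles in a comparison, while the 3 BCL2 family effectors lay below NS at each sorbitol dose with both scalings. For Bok, the lowest of them, the CPM intervals at 250 and 300 mM overlap that of NS. The members are described in turn.

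**Figure D1:**
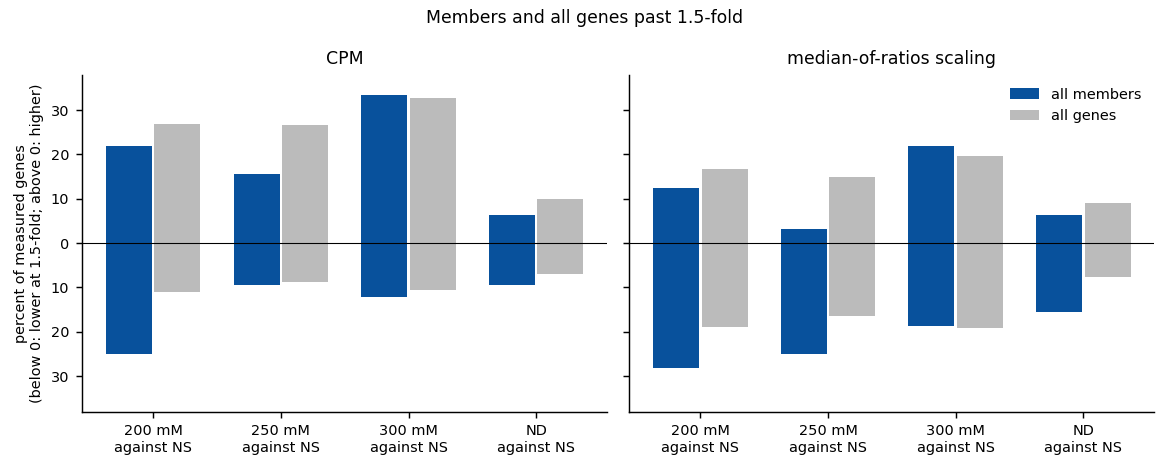
Percent of measured members (blue) and of all measured genes (grey) that were higher (above 0) or lower (below 0) at 1.5-fold in 4 comparisons with NS, with CPM on the left and median-of-ratios scaling on the right. At 300 mM sorbitol the members' 33.3% higher stood beside 32.8% of all genes with CPM, while at 200 mM the members' 25.0% lower stood beside 11.0%.

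Trp53, with a matching unit upstream, stood higher in each of the other libraries than in NS. It had 264, 343 and 427 CPM at 200, 250 and 300 mM sorbitol, 360 CPM in ND and 219 CPM (213 to 225) in NS (ENSMUSG00000059552; mm10 chromosome 11, 69580359 to 69591873, plus strand). In order the levels ran from 300 mM down through ND, 250 mM and 200 mM to NS, and the only neighbours with overlapping intervals were ND (347 to 374) and 250 mM (331 to 355). Against NS the fold was 1.95 at 300 mM (log2 0.96, 0.90 to 1.03), 1.57 at 250 mM (0.65, 0.58 to 0.71), 1.65 in ND (0.72, 0.65 to 0.79) and, within 1.5-fold, log2 0.27 at 200 mM; the call at 250 mM was lost with median-of-ratios scaling (log2 0.41). A processed pseudogene of Trp53 exists, so part of its reads may be shared.

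Mdm2, the p53 ligase and a p53 target with a matching unit upstream, stayed within 1.5-fold of NS in each library. Its level was 128, 137 and 135 CPM over the sorbitol doses, 163 CPM in ND and 154 CPM in NS (ENSMUSG00000020184; chromosome 10, 117688875 to 117710758, minus strand). The log2 ratios to NS, -0.26, -0.17 and -0.18 under sorbitol and 0.08 (-0.01 to 0.18) in ND, included no call. Mdm4, the partner of MDM2 that silences p53, had 114, 96.8 and 114 CPM at the 3 doses, 81.1 CPM in ND and 70.8 CPM in NS. It was 1.61-fold higher than NS at 200 mM (log2 0.69, 0.58 to 0.80) and 1.61-fold at 300 mM (0.69, 0.57 to 0.81), and both calls were lost with median-of-ratios scaling (0.47 and 0.43).

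A ratio of 2 genes in 1 library does not depend on how libraries are scaled. Such UMI ratios were taken for 9 pairs of members, chosen after the values were seen. Per 100 Mdm2 UMIs there were 207, 251 and 315 Trp53 UMIs at 200, 250 and 300 mM sorbitol, 221 in ND and 142 (136 to 149) in NS. The count was larger at each larger dose, with intervals at 200 mM (193 to 222), 250 mM (235 to 268) and 300 mM (294 to 337) that do not overlap. Mdm4 gave 89.2, 70.8 and 84.3 UMIs per 100 Mdm2 UMIs at the doses, 49.8 (45.2 to 54.8) in ND and 46.0 (43.3 to 48.9) in NS. The sorbitol libraries lie above the ND and NS intervals, which overlap each other. Cdkn1a gave 50.8, 56.7 and 67.8 UMIs per 100 Mdm2 UMIs at the doses, 71.3 (65.5 to 77.7) in ND and 54.1 (51.1 to 57.3) in NS, so that 300 mM (61.7 to 74.4) and ND lay above NS and the other doses overlapped it.

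The arrest targets Cdkn1a, Ccng1 and Zmat3 stayed within 1.5-fold of NS in each library. Cdkn1a encodes p21, the inhibitor of cyclin-dependent kinases through which p53 halts the cell cycle, and a window of the gene held the pair of units. The gene had 65.0, 77.4 and 91.8 CPM over the sorbitol doses, 116 CPM in ND and 83.2 CPM in NS (ENSMUSG00000023067; chromosome 17, 29090976 to 29100727, plus strand). Among sorbitol libraries the level was higher at each larger dose, but it was below NS at 200 mM (log2 -0.36, -0.49 to -0.22) and above it at 300 mM (0.14, 0.02 to 0.26), where median-of-ratios scaling turned the ratio to -0.12. The highest level was that in ND (log2 0.48, 0.37 to 0.60), still within 1.5-fold. Ccng1, the cyclin G1 gene and a p53 target with a matching unit, had 164, 193 and 195 CPM at the doses, 197 CPM in ND and 180 CPM (174 to 185) in NS. Its log2 ratios to NS stayed between -0.13 and 0.14. Zmat3, an RNA-binding p53 target, had 48.4, 54.5 and 55.5 CPM over the doses, 73.1 CPM in ND and 53.7 CPM in NS, with the ND level above the others.

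Sesn1 and Btg2 were higher at each sorbitol dose with CPM. Sesn1, a gene with a matching unit that encodes sestrin 1, an inhibitor of the growth kinase mTORC1, had 19.96, 15.6 and 20.02 CPM at 200, 250 and 300 mM, 10.2 CPM in ND and 9.75 CPM in NS. That is 2.05-fold (log2 1.03, 0.74 to 1.32), 1.60-fold (0.67, 0.37 to 0.98) and 2.05-fold (1.04, 0.74 to 1.34) the NS level, while ND and NS could not be separated (0.07). Btg2, an antiproliferative gene, had 78.3, 76.4 and 92.7 CPM over the doses, 53 CPM in ND and 47.8 CPM in NS. Its sorbitol levels were all above the intervals of ND (48.0 to 58.3) and NS (45 to 50.8), and its folds to NS were 1.64, 1.60 and 1.94. Only the call at 300 mM held with median-of-ratios scaling for Btg2 (log2 0.70), and for Sesn1 those at 200 mM (0.81) and 300 mM (0.78).

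Gadd45a, a DNA damage gene with a matching unit, had 56.4, 37.2 and 50.2 CPM over the doses, 39.6 CPM in ND and 28.9 CPM in NS. It was called at 200 mM (1.95-fold; log2 0.97, 0.80 to 1.13) and at 300 mM (1.74-fold; 0.80, 0.62 to 0.98), the second only with CPM (0.54 with median-of-ratios scaling). Its relative Gadd45b, which is induced by inflammatory and TGF-beta signals, went the other way in every library. Gadd45b had 18.4, 18.0 and 14.6 CPM at the doses, 17.3 CPM in ND and 36.9 CPM (34.4 to 39.5) in NS, so that it was 2.002-fold, 2.05-fold and 2.53-fold lower under sorbitol and 2.13-fold lower in ND (ENSMUSG00000015312; chromosome 10, 80930073 to 80932204). The 4 lower levels had overlapping intervals, and all 4 calls held with both scalings.

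Trp53inp1, a p53 target that promotes autophagy and death, had 117, 109 and 143 CPM over the doses, 113 CPM in ND and 85.9 CPM in NS. It was called at 300 mM alone (1.66-fold; log2 0.73, 0.63 to 0.84), a call lost with median-of-ratios scaling (0.47). Aen, an apoptosis-enhancing nuclease gene with a matching unit, had 48.1, 55.8 and 66.0 CPM at the doses, 81.7 CPM in ND and 77.6 CPM in NS. At 200 mM it was 1.61-fold lower (log2 -0.69, -0.84 to -0.54), and the sorbitol levels stepped upward with dose toward NS.

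**Figure D2:**
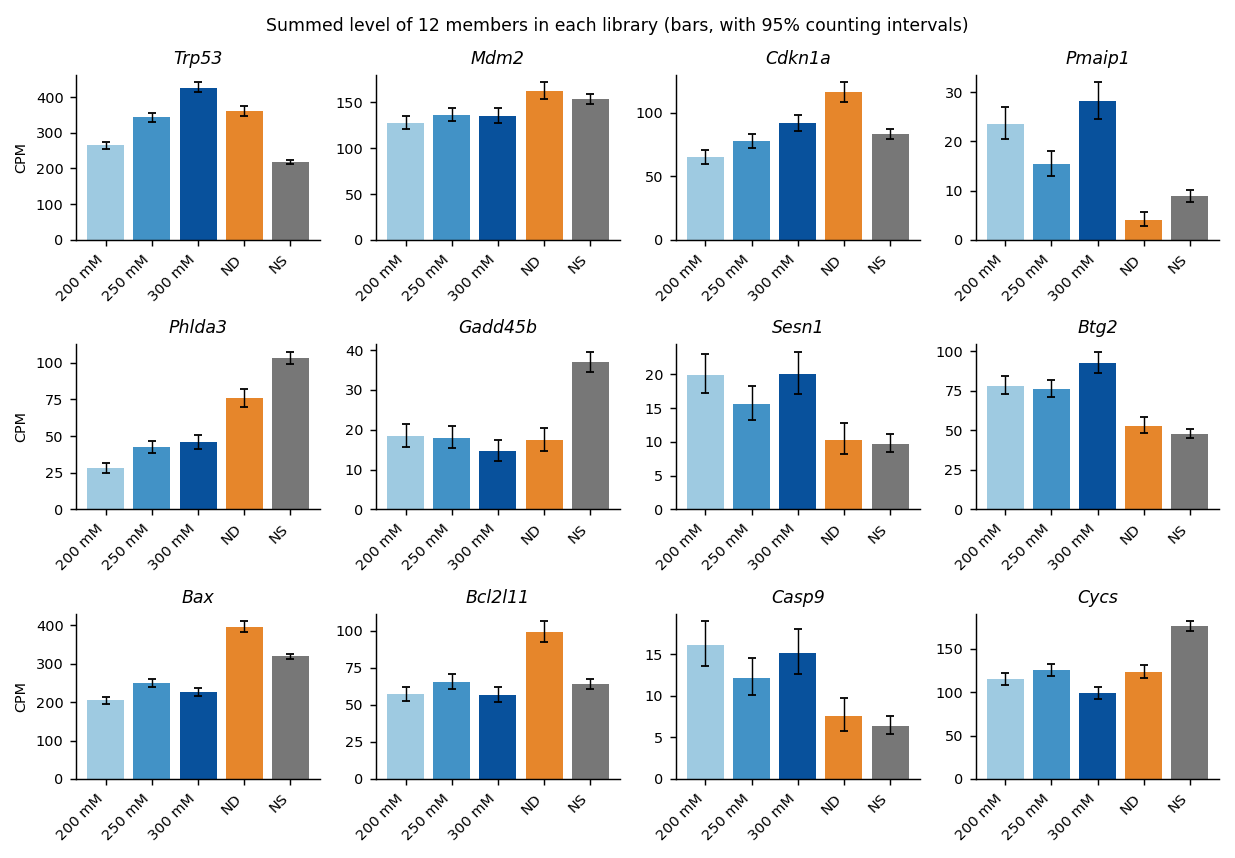
Level in CPM, from 0, of 12 members in the 5 libraries (sorbitol at 200, 250 and 300 mM, ND, NS); bars are single libraries and error bars are 95% Poisson intervals for counting error. Trp53 reached 427 CPM at 300 mM against 219 in NS, while Mdm2 stayed between 128 and 163 CPM, and Pmaip1 was higher at each sorbitol dose and lower in ND than in NS.

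Among the targets linked to death, Pmaip1 was called higher and Phlda3 and Perp lower at each sorbitol dose. Pmaip1 encodes NOXA, a BH3-only protein that neutralises MCL1. It had 23.5, 15.4 and 28.1 CPM at 200, 250 and 300 mM sorbitol, 4.05 CPM (2.77 to 5.71) in ND and 8.85 CPM (7.65 to 10.2) in NS. No 2 libraries overlapped except 200 mM (20.5 to 26.9) with 300 mM (24.6 to 31.9). Against NS the gene was 2.66-fold (log2 1.41, 1.13 to 1.70), 1.74-fold (0.80, 0.48 to 1.11) and 3.18-fold (1.67, 1.39 to 1.95) higher under sorbitol and 2.19-fold lower in ND (-1.13, -1.72 to -0.58). The sorbitol library at 300 mM was thus 6.94-fold above ND (log2 2.80, 2.26 to 3.38). The count in ND was 32 UMIs, and the call at 250 mM was lost with median-of-ratios scaling (0.56) and with barcodes thinned to 500 UMIs (0.45).

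Phlda3, which encodes a p53-induced repressor of AKT signalling, was the member furthest below NS at 200 and 250 mM sorbitol. It had 28.1, 42.4 and 45.9 CPM over the doses, 75.8 CPM in ND and 103 CPM (98.9 to 107) in NS (ENSMUSG00000041801; chromosome 1, 135766119 to 135769136, plus strand). It was 3.67-fold (log2 -1.88, -2.07 to -1.69), 2.43-fold (-1.28, -1.44 to -1.13) and 2.24-fold (-1.17, -1.33 to -1.01) lower at 200, 250 and 300 mM. In ND the difference was within 1.5-fold (-0.44), and 300 mM lay 1.65-fold below ND (-0.72). Perp, a p53 target of cell junctions, had 20.6, 18.2 and 22.1 CPM at the doses, 22.4 CPM in ND and 33.2 CPM in NS, and was 1.61-fold, 1.82-fold and 1.51-fold lower under sorbitol. In ND it lay just within 1.5-fold (log2 -0.57) and passed it with median-of-ratios scaling. Bbc3, which encodes PUMA, stayed within 1.5-fold throughout at 17.0 to 22.9 CPM. Ei24, an endoplasmic reticulum gene with a matching unit, was level with NS except at 300 mM, with 81.2 CPM against 56.1 in NS (log2 0.53, 0.40 to 0.67).

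**Figure D3:**
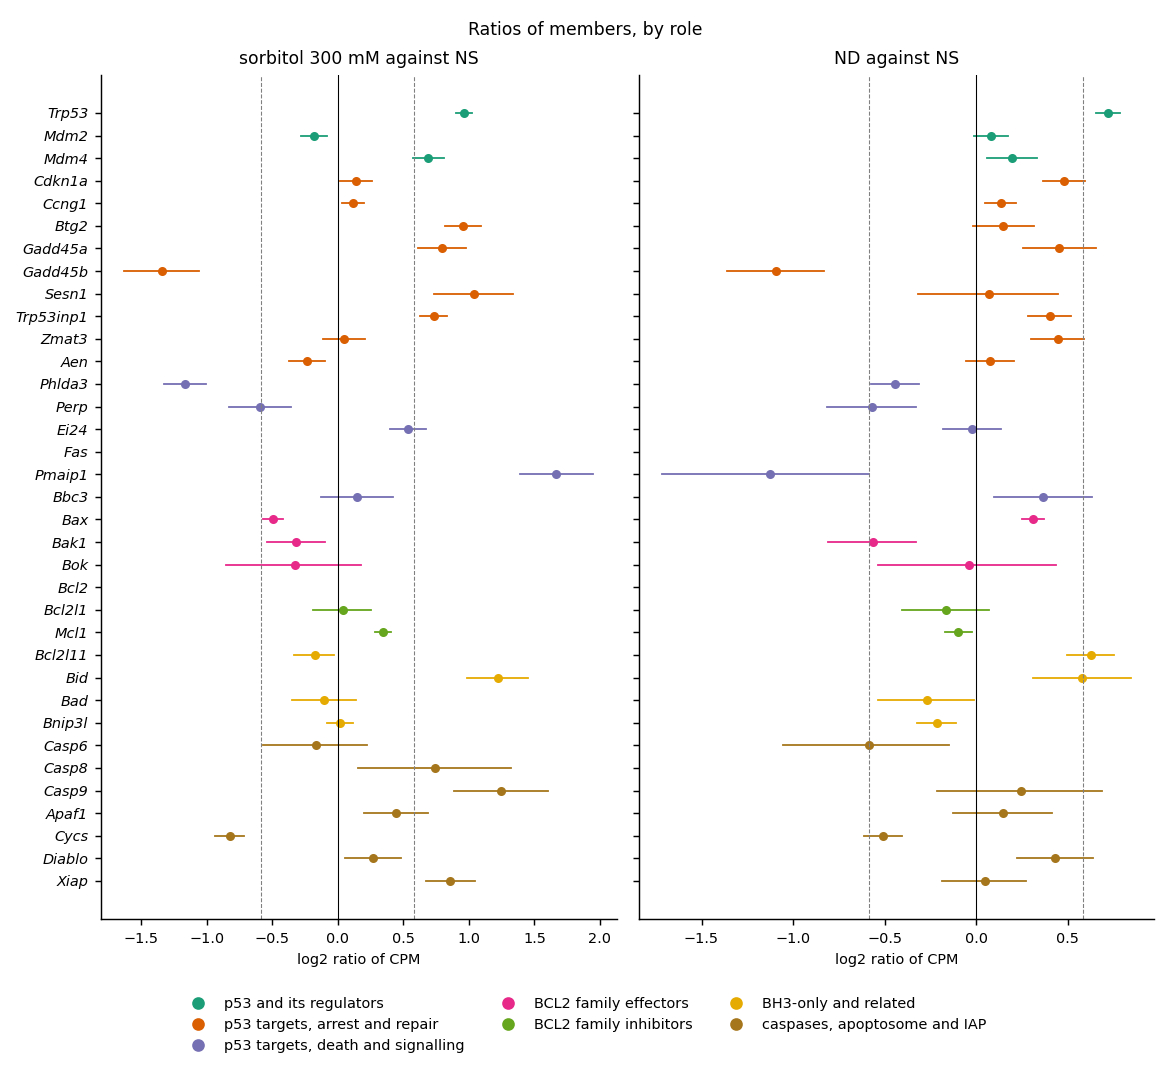
Log2 ratio of CPM (x axis) of each measured member, grouped and coloured by role, for 300 mM sorbitol against NS on the left and ND against NS on the right; points are ratios of single libraries, bars are 95% counting intervals and dashed lines mark 1.5-fold. Pmaip1 lies at 1.67 on the left and -1.13 on the right, while Gadd45b lies below -1 in both.

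In the BCL2 family, the effectors Bax, Bak1 and Bok, which belong to the class that opens the mitochondrial membrane, were each called lower at 200 mM sorbitol. Bax, with a matching unit upstream, had 204, 249 and 226 CPM at 200, 250 and 300 mM, 396 CPM (382 to 410) in ND and 319 CPM (311 to 326) in NS (ENSMUSG00000003873; chromosome 7, 45461697 to 45466898, minus strand). All 3 sorbitol libraries lay below NS and ND above it, with no overlapping intervals between these groups. The difference from NS passed 1.5-fold at 200 mM (1.56-fold lower; log2 -0.64, -0.72 to -0.57) and, with median-of-ratios scaling, at all 3 doses. Set against ND, 300 mM was 1.75-fold lower (-0.80, -0.89 to -0.72). Bak1 had 22.2, 23.2 and 27.0 CPM at the doses, 22.8 CPM in ND and 33.7 CPM in NS, lower in each library than in NS and called at 200 mM (1.51-fold), and also in ND and at 250 mM when scaled by the median of ratios. Bok, a less studied relative, was 1.71-fold lower at 200 mM (log2 -0.78, -1.35 to -0.23) from 35 UMIs, with levels of 3.80 to 5.19 CPM under sorbitol, 6.32 CPM in ND and 6.50 CPM in NS. With median-of-ratios scaling Bok was lower at 250 and 300 mM too, the second barely past 1.5-fold (log2 -0.586). These rest on 45 and 43 UMIs. The CPM intervals at 250 mM (3.36 to 6.17) and 300 mM (3.75 to 6.99) overlap that of NS (5.48 to 7.65).

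The inhibitors that were measured stayed within 1.5-fold of NS with CPM. Mcl1 had 301, 311 and 357 CPM at the doses, 262 CPM in ND and 281 CPM (274 to 288) in NS, and Bcl2l1, which encodes BCL-XL, had 19.96, 23.7, 28.5, 24.8 and 27.8 CPM in the same order. Bcl2l1 at 200 mM (log2 -0.48) passed 1.5-fold with median-of-ratios scaling and with barcodes thinned to 500 UMIs (-0.64). Per 100 Mcl1 UMIs there were 68.0, 80.1 and 63.5 Bax UMIs under 200, 250 and 300 mM sorbitol, 151 (143 to 159) in ND and 114 (110 to 117) in NS. Pmaip1 ran the other way: 7.83, 4.94 and 7.87 UMIs per 100 Mcl1 UMIs at the doses, 1.54 (1.05 to 2.18) in ND and 3.15 (2.72 to 3.63) in NS. Sorbitol libraries thus held less Bax and more Pmaip1 transcript relative to Mcl1 than NS did, and ND held more Bax and less Pmaip1. Against the other inhibitor the lower Bax was not seen at each dose: per 100 Bcl2l1 UMIs there were 1024 (880 to 1198), 1053 (920 to 1211) and 796 (695 to 915) Bax UMIs at 200, 250 and 300 mM, 1596 (1381 to 1853) in ND and 1148 (1057 to 1249) in NS. At 200 and 250 mM the intervals overlap that of NS.

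Bcl2l11 encodes BIM, a BH3-only activator of BAX and BAK1. It had 57.2, 65.7 and 56.8 CPM over the doses, 99.0 CPM (92.2 to 106) in ND and 64.2 CPM (60.9 to 67.6) in NS. ND stood clear of the other 4 libraries, 1.54-fold above NS (log2 0.62, 0.50 to 0.75), and 300 mM was 1.74-fold below ND. Relative to Mcl1 the gene gave 19.0, 21.1 and 15.9 UMIs per 100 at the doses, 37.7 in ND and 22.9 in NS. Bid, which caspase 8 cleaves to link death receptors to mitochondria, had 24.7, 21.3 and 35.1 CPM at the doses, 22.5 CPM in ND and 15.1 CPM (13.5 to 16.8) in NS. It was called at 200 mM (1.64-fold) and 300 mM (2.33-fold; log2 1.22, 0.99 to 1.45), the first only with CPM, and an exon of Bid overlaps one of Bcl2l13 on the other strand. Bad, a BH3-only sensor of growth factor signals, and Bnip3l, a mitophagy receptor, stayed within 1.5-fold in each comparison, Bad between 20 and 27.5 CPM and Bnip3l between 116 and 139 CPM over all libraries.

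**Figure D4:**
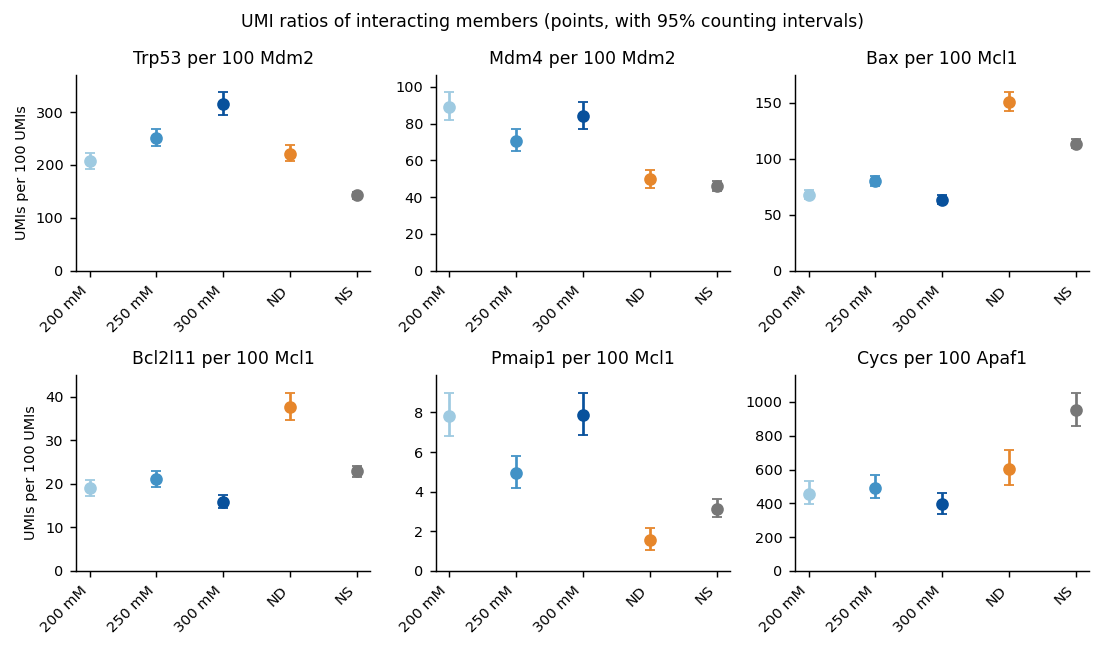
UMIs of 1 member per 100 UMIs of its partner (y axes from 0) in the 5 libraries, for 6 pairs; points are single libraries and error bars are 95% counting intervals. Trp53 per 100 Mdm2 is 315 at 300 mM against 142 in NS, while Bax per 100 Mcl1 is 63.5 at 300 mM, 151 in ND and 114 in NS.

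Downstream of the mitochondrion, Casp9, the initiator caspase of the intrinsic route, was higher at each sorbitol dose. It had 16.2, 12.2 and 15.2 CPM at 200, 250 and 300 mM, 7.59 CPM (5.79 to 9.77) in ND and 6.41 CPM (5.40 to 7.55) in NS (ENSMUSG00000028914; chromosome 4, 141793612 to 141815976, plus strand). The folds to NS were 2.52 (log2 1.33, 0.99 to 1.68), 1.90 (0.93, 0.56 to 1.29) and 2.37 (1.25, 0.89 to 1.60), and all 3 calls held with median-of-ratios scaling, while ND and NS overlapped. Its exons overlap those of Cela2a and Ctrc on the other strand, exons of Gadd45a, Ei24, Bak1, Bcl2, Bad and Diablo also overlap another counted gene, and strand use in counting is not given in the sources used here. Apaf1, the scaffold of the apoptosome, had 25.2, 25.5 and 25.2 CPM at the doses, 20.5 CPM in ND and 18.5 CPM in NS, within 1.5-fold.

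Cycs, which encodes cytochrome c, was the downstream member called lower under sorbitol. It had 115, 126 and 99.4 CPM at the doses, 124 CPM in ND and 176 CPM (170 to 181) in NS. All 4 libraries lay below NS, and the difference passed 1.5-fold at 200 mM (1.52-fold; log2 -0.61) and 300 mM (1.77-fold; -0.82, -0.93 to -0.71), and with median-of-ratios scaling at 250 mM too. Cycs has pseudogene copies, which makes its level uncertain. Per 100 Apaf1 UMIs there were 458, 493 and 394 Cycs UMIs at the doses, 603 (510 to 717) in ND and 950 (858 to 1055) in NS. Xiap, an inhibitor that binds caspase 9, had 35.7, 39.0 and 48.2 CPM at the doses, 27.4 CPM in ND and 26.6 CPM in NS, with a call at 300 mM (1.81-fold; log2 0.86, 0.67 to 1.05). Per 100 Xiap UMIs there were 45.3 (37.1 to 55.1), 31.2 (25.2 to 38.5) and 31.5 (25.6 to 38.6) Casp9 UMIs at 200, 250 and 300 mM, 27.6 (20.4 to 37.0) in ND and 24.1 (19.9 to 29.0) in NS, and only 200 mM stood clear of NS. Diablo, which encodes SMAC, the antagonist of XIAP, stayed within 1.5-fold at 32.4 to 36.3 CPM outside NS and 26.9 CPM in NS. Exons of Diablo overlap those of Gm49027 on the same strand, which makes its level uncertain.

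Casp6, an executioner caspase, was 1.503-fold lower in ND at 6.58 CPM against 9.88 CPM in NS (log2 -0.59, -1.05 to -0.15), from 52 UMIs in ND, and stayed within 1.5-fold of NS under sorbitol with CPM. With barcodes thinned to 500 UMIs its log2 ratio at 200 mM was 0.67, past 1.5-fold higher. Casp8, the initiator of the death receptor route, reached 5 CPM in the 300 mM library alone, with 5.07 CPM from 42 UMIs against 3.02 CPM in NS (1.68-fold; 0.74, 0.15 to 1.32), and that call rests on the minimum and was lost with median-of-ratios scaling. In all, 12 measured members passed 1.5-fold in no comparison, among them Mdm2, Cdkn1a, Ccng1, Bbc3, Mcl1 and Apaf1.

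Further genes of the pathway were read from 4 lists that hold no member. Of 30 measured p53 targets outside the members, 3, 2 and 5 were higher and 8, 5 and 7 lower than NS at 200, 250 and 300 mM, and 2 were higher and 1 lower in ND. The sorbitol shares were 10%, 6.67% and 16.7% higher, beside 26.8%, 26.5% and 32.8% of all genes, and 26.7%, 16.7% and 23.3% lower, beside 11.0%, 8.69% and 10.6%. Their medians were -0.14, -0.13 and -0.05 under sorbitol and 0.12 in ND on the log2 scale, beside 0.20, 0.23, 0.29 and 0.08 for all genes. With median-of-ratios scaling 1, 1 and 2 were higher and 11, 9 and 8 lower over the doses. Of all genes, 16.7%, 14.9% and 19.6% were then higher and 18.9%, 16.5% and 19.2% lower. In ND 2 targets were then higher and 1 lower, beside 9.12% and 7.61% of all genes. The same ND counts with CPM, 6.67% higher and 3.33% lower, stood beside 10% and 7.07% of all genes. Steap3, an iron reductase gene, had 5.64, 10.4 and 9.04 CPM over the doses, 4.30 CPM in ND and 2.12 CPM in NS. The non-coding Pvt1 had 2.93, 4.1 and 4.34 CPM at the doses, 8.47 CPM in ND and 10.3 CPM in NS, and Cgref1, a growth regulator gene, was 2.02-fold, 1.91-fold and 2.36-fold lower under sorbitol. Ddit4, an inhibitor of mTORC1 that many stresses induce, had 376, 296 and 219 CPM at the doses, 404 CPM in ND and 246 CPM in NS. Trp53i11 was lower in ND (12.9 CPM against 24.1 in NS), and Lif itself was 5.94 CPM in ND and 2.26 CPM in NS. Lif had 47 UMIs in ND and 50 in NS and passed the minimum of 5 CPM through ND alone, so its call rests on that minimum.

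Of 18 measured regulators of p53, 5, 5 and 6 were higher and 2, 2 and 4 lower over the doses, and 3 were higher and 0 lower in ND; with median-of-ratios scaling the doses gave 3, 4 and 3 higher and 4, 4 and 5 lower. The CPM shares that were higher, 27.8%, 27.8% and 33.3%, lay near the 26.8%, 26.5% and 32.8% of all genes. Shares of 11.1%, 11.1% and 22.2% were lower, beside 11.0%, 8.69% and 10.6%. With median-of-ratios scaling 16.7%, 22.2% and 16.7% were higher and 22.2%, 22.2% and 27.8% lower. Of all genes, 16.7%, 14.9% and 19.6% were then higher and 18.9%, 16.5% and 19.2% lower. In ND the CPM shares were 16.7% higher and 0% lower, beside 10% and 7.07% of all genes. Trp53bp1, a reader of DNA breaks, had 33.4, 35.9 and 33.3 CPM at the doses, 26.6 CPM in ND and 12.8 CPM in NS. Chek2, a damage kinase gene, had 37.2, 37.9 and 31.4 CPM at the doses, 27.2 CPM in ND and 17.3 CPM in NS. Usp7, which encodes the enzyme that removes ubiquitin from both p53 and MDM2, had 235, 268 and 311 CPM at the doses, 200 CPM in ND and 138 CPM in NS. Usp28 was called in ND alone (51.7 CPM against 29.8 in NS). Rpl11, a ribosomal protein that binds MDM2, had 1577, 1420 and 1195 CPM at the doses, 1936 CPM in ND and 2280 CPM in NS.

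Among other BCL2 family genes and their partners, 6 of 18, 4 of 18 and 5 of 19 were higher over the doses and 1, 0 and 1 lower, and 2 of 17 were higher and 0 lower in ND. The shares higher under sorbitol, 33.3%, 22.2% and 26.3%, again stood beside 26.8%, 26.5% and 32.8% of all genes. Median-of-ratios scaling gave 3, 2 and 2 higher and 2, 3 and 2 lower over the doses. These are 16.7%, 11.8% and 11.1% higher and 11.1%, 17.6% and 11.1% lower. Of all genes, 16.7%, 14.9% and 19.6% were then higher and 18.9%, 16.5% and 19.2% lower. In ND the CPM shares were 11.8% higher and 0% lower, beside 10% and 7.07% of all genes. Bmf, a BH3-only gene linked to the cytoskeleton, had 13.7, 12.6 and 11.6 CPM under sorbitol, 2.15 CPM in ND and 1.94 CPM in NS, 7.04-fold, 6.49-fold and 5.97-fold above NS. The 3 sorbitol values rest on 126, 123 and 96 UMIs, the ND value on 17 and the NS value on 43. With barcodes thinned to 500 UMIs the log2 ratios to NS were 3.59, 3.91 and 3.51 in place of 2.82, 2.70 and 2.58. All 3 share the NS count, which thinning cuts further from 43 UMIs, so the rise is not read as a larger difference. Bik, a BH3-only gene of the endoplasmic reticulum, had 21.9, 13.4 and 10.1 CPM at 200, 250 and 300 mM, 33.9 CPM in ND and 16.7 CPM in NS. It was 2.02-fold higher in ND and 1.65-fold lower at 300 mM than in NS, so that 300 mM was 3.35-fold below ND. Ywhaz, a 14-3-3 gene whose product holds BAD in the cytosol, was 1.57-fold and 2.15-fold higher at 200 and 300 mM. Bcl2l2, an inhibitor, had 5.79 CPM at 300 mM, 2.40 CPM in ND and 2.93 CPM in NS, and Bcl2l15 was 5.69 CPM in ND and 2.57 CPM in NS, a log2 ratio of 1.15 that was 0.51 with thinned barcodes. Bcl2l2 had 48 UMIs at 300 mM and 65 in NS, and Bcl2l15 had 45 in ND and 57 in NS. Each passed the minimum of 5 CPM only through the library where it was higher, so these calls rest on that minimum.

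Caspases, inhibitor of apoptosis proteins and death receptor genes outside the members had 3 of 21, 4 of 21 and 6 of 22 higher over the doses and 3, 0 and 1 lower; in ND 2 of 20 were higher and 2 lower. That is 14.3%, 19.0% and 27.3% higher over the doses, each below the share of all genes (26.8%, 26.5% and 32.8%). By the median of ratios, 2 were higher at each dose and 5, 4 and 6 lower. These are 9.52% higher at each dose and 23.8%, 19.0% and 28.6% lower. Of all genes, 16.7%, 14.9% and 19.6% were then higher and 18.9%, 16.5% and 19.2% lower. In ND the CPM shares were 10% higher and 10% lower, beside 10% and 7.07% of all genes. Htra2, a mitochondrial protease that antagonises XIAP, had 20.8, 19.9 and 19.9 CPM at the doses, 14.0 CPM in ND and 10.7 CPM in NS. Dffa, the inhibitor of the nuclease that cuts DNA in apoptosis, had 13.7, 13.7 and 18.9 CPM at the doses, 9.49 CPM in ND and 9.03 CPM in NS. Tnfrsf1a, a receptor of tumour necrosis factor, had 5.86, 6.04 and 5.79 CPM at the doses, 1.64 CPM in ND and 2.98 CPM in NS. These are 54, 59 and 48 UMIs at the doses, 13 in ND and 66 in NS. Tnfrsf1a passed the minimum of 5 CPM only under sorbitol, so its calls rest on that minimum. In ND, Cradd was higher (11.4 CPM against 6.72 in NS), Tradd lower (4.05 against 6.50 CPM) and Parp1, a caspase substrate, lower (720 against 1199 CPM).

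Set directly against each other, 300 mM sorbitol and ND differed at 1.5-fold in 10 of 33 measured members. Of these, 7 were higher at 300 mM and 3 lower, 21.2% and 9.09%, where 27.9% and 11.4% of all measured genes were. The higher ones were Pmaip1, Casp9, Sesn1, Btg2, Xiap, Casp8 and Bid, and the lower ones Bax, Bcl2l11 and Phlda3. With median-of-ratios scaling 3 were higher, Pmaip1, Casp9 and Sesn1, and 4 lower, Zmat3 joining, beside 17.0% and 19.9% of all genes. The interval of Casp8 (log2 0.68, -0.07 to 1.46) included no difference.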

How the data were processed

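Droplet RNA libraries of 5 conditions, 1 each, were compared, grouped by the treatment label. Deposited values are unscaled UMI counts for each gene in each barcode, which per the file headers the authors made in Cell Ranger 6.0.1. Per the submitters' processing notes, the build was mm10; Seurat 4.1.1 and R 4.1.2 are listed there too, with no step given. The labels describe a Trizol lysis and a Lexogen 3' kit, whereas the files are barcode matrices; which steps apply was not settled. The sources used here do not state the annotation, the use of strand or the choice of 10000 barcodes, so reads of genes that overlap on opposite strands cannot be told apart. Exons of 8 members overlap another counted gene (GENCODE M21). Among them, Diablo also overlaps Gm49027 on its own strand, where strand use would not separate the reads.

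A barcode was kept if it had 500 or more genes and no more than 20% of its UMIs in mitochondrially encoded genes: 9985, 10000 and 9849 at 200, 250 and 300 mM sorbitol, 9240 in ND and 10000 in NS. No doublet caller was run. The UMIs of kept barcodes were added up per library and divided by the total to give CPM. Log2 ratios have exact conditional binomial (Clopper-Pearson) intervals and levels exact Poisson ones, at 95%, for counting error only; UMI counts under 3 were set to 3 in ratios. Dispersion was taken where a gene averaged 0.02 UMIs or more per thinned barcode. No test was possible with 1 library per condition. The members and lists were chosen with earlier results of these data known. All members are described; of each further list, the 3 genes with the largest absolute ratio at 300 mM and in ND were named. The symbols Ptprv and Septin4 were not found. Ratios and intervals were tested on simulated data. The alternatives were another scaling, another total, barcode filters, thinning, no CPM minimum and 2-fold. Python 3.11.15, numpy 2.4.6, scipy 1.17.1 and pandas 2.3.3 were used.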

Additional observations from a re-analysis of the deposited data

How the results depend on the processing

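No paired analysis was possible because each condition has 1 library and the labels number no replicates. Of 115 recomputed counts and medians over the members, 90 kept their direction and stayed close to the value reported. Under median-of-ratios scaling the member median was -0.16, -0.16 and -0.13 at 200, 250 and 300 mM against NS and -0.024 at 300 mM against ND, all with the sign turned; 4, 1 and 7 members were higher over the doses and 3 at 300 mM against ND, 8 were lower at 250 mM and 5 in ND. With the total taken without mitochondrial and ribosomal protein genes, the median was -0.00581 at 250 mM, with the sign turned, and 0.040 at 300 mM, and in ND 1 member was higher and 5 lower. Thinning to 500 UMIs gave 5 lower in ND. With no CPM minimum, 5 were lower at 250 mM and 5 at 300 mM against ND. At 2-fold, 3, 0 and 4 members were higher over the doses, 2 were lower at 200 mM and 2 at 300 mM, 0 were higher in ND, and 2 were higher and 0 lower at 300 mM against ND. Shares of all genes were taken with CPM and median-of-ratios scaling at 1.5-fold alone, so the other counts here have none beside them. The cause of the moves was not tested.

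Of 162 member ratios, 84 left their counting interval with median-of-ratios scaling, 10 with the other total and 15 with thinning. Every deposited barcode, at most 10% mitochondrial UMIs and leaving out the 5% of barcodes with most UMIs moved none. The 10% limit kept 9983 of 9985, 9982 of 10000 and 9826 of 9849 barcodes at the doses, 9238 of 9240 in ND and 10000 of 10000 in NS. Every deposited barcode added 15, 0, 151, 760 and 0 in that order. These settings changed few barcodes, so they could hardly move a ratio. No member called with CPM changed sign under any of the scalings, filters or thinning. Of the 98 ratios of other named genes, 31, 15 and 16 moved with median-of-ratios scaling, the other total and thinning. Of 45 pair ratios 5 moved when thinned. The alternatives for other genes and pairs were chosen after the data were seen. Depth limits the low members: Bcl2 and Fas were not measured, and Casp8, Bok and Pmaip1 in ND rest on 50 UMIs or fewer in a library.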
